A study of Mus musculus with 4 samples.

Results

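The CPEB, Musashi and Rbfox genes are 9 mouse genes for RNA-binding proteins, chosen by symbol: Cpeb1 to Cpeb4, Msi1, Msi2 and Rbfox1 to Rbfox3. They were picked because Cpeb1 and Rbfox1 had many reads in these data, so the reads of those genes are a description and carry no test. Of the 9, 6 were listed in at least 1 of the 2 gene tables, out of 5614 genes listed in all. The data are insertions of a piggyBac gene trap in haploid neural stem cell-like cells of 129Sv background, made for genetic screening. The cells came from haploid embryonic stem cells through 3 days as embryoid bodies and a medium with FGF2, EGF, LDN193189, SB431542 and a ROCK inhibitor (Y-27632, Thiazovivin or both; which was used is not given per sample). All samples shared transfection with the trap plasmid and a codon-optimized piggyBac transposase, selection with G418 and amplification of insertion sites by splinkerette PCR, a nested PCR from a ligated adapter. The labels give induction day 10 for all samples. The 4 samples form 2 libraries, each deposited as 1 table that pools 2 samples. The sample titles end in 3 or 5, which the labels do not explain, so the 2 samples of a library may not be replicates. The labels give no treatment, genotype or time that differs between library 1 and library 2. Each library is a pool of transfected cells, and neither table separates its 2 samples, so no value has a replicate check and no test between the libraries was made. The DNA junctions hold no expression data, so the labelled cell type could not be set against its markers.

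CPEB proteins bind a uridine-rich element in the 3′ end of messenger RNAs and control poly(A) tail length and translation, in oocytes and at synapses. Musashi proteins bind messenger RNAs in neural stem cells and are used as markers of these cells. Rbfox proteins bind a short GCAUG element and regulate alternative splicing in neurons, and Rbfox3 is the antigen known as NeuN, a marker of mature neurons. In a haploid cell a gene trap within any of these genes has no intact second copy beside it.

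The piggyBac transposon inserts at the tetranucleotide TTAA. The deposited tables give no insertion position. The windows at the annotated starts of the 2 genes with most reads are therefore shown only for where this target stands in them. Each line gives the 250 bases before a transcription start, 5′ to 3′ on the strand of the gene, from RefSeq on GRCm38.p6, a later build than the mm9 that the submitters' processing notes name. Capitals mark TTAA.
Cpeb1, chr7:81454759-81455008, minus strand: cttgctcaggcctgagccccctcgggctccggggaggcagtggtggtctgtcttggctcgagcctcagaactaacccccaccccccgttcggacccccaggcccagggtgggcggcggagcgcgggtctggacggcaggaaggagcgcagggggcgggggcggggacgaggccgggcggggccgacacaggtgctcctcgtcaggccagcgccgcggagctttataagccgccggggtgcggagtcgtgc
Rbfox1, upstream start, chr16:5884543-5884792, plus strand: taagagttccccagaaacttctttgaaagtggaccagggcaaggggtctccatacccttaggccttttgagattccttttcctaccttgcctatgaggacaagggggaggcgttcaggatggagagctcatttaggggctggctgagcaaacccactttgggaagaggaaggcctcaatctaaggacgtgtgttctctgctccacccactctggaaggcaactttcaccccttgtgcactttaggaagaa
Rbfox1, downstream start, chr16:7069585-7069834, plus strand: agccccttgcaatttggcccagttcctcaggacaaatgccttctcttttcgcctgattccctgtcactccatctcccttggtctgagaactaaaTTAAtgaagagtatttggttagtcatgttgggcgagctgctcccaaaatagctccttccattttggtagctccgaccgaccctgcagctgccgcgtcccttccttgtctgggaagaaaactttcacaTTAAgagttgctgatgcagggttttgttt
The Cpeb1 window held 0 copies of TTAA at 74.0% G and C. The upstream Rbfox1 window also held 0 copies, and the downstream window held 2, whose first bases lie 156 and 29 bases before the start. TTAA reads the same on both strands and cannot overlap itself. Of all 32851 windows in the RefSeq table, 49.0% held at least 1 copy. Among the members, 6 genes had 11 windows in the table, some of them overlapping, and 2 windows held TTAA, the downstream one of Rbfox1 and 1 of the 3 of Cpeb3. The member windows ran from 46.0 to 78.0% G and C (median 66.0%), against a median of 52.4% over all windows. A window without TTAA says only that these letters are not in it.

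Library 1 had 55442 nonredundant reads over 4184 genes, and library 2 had 48750 over 3168 genes, as counted by the authors. Redundant reads, which include repeated copies, came to 877870 and 1300140. A gene is in a table only with at least 1 read, and 53.7% of the genes in library 1 and 59.7% in library 2 had exactly 1. Such a gene has weak read support. Y-linked genes, which serve here as a background, were listed for 3 of 78 in library 1 and 7 of 78 in library 2, at 2 reads at most. That use assumes cells without a Y chromosome, which was not tested. A count of 0 allows a share of up to 0.00541% of library 1 and 0.00615% of library 2, taken as 3 reads of the total. All intervals below are exact Clopper-Pearson 95% intervals, and intervals and limits cover counting error only, since PCR reads are not independent molecules.

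Reads at the 9 genes were concentrated in Cpeb1 in library 2 and in Rbfox1 in library 1. Library 1 listed 5 of the 9 (Cpeb1, Cpeb4, Msi2, Rbfox1 and Rbfox2), and library 2 also listed 5 (Cpeb1, Cpeb3, Cpeb4, Msi2 and Rbfox1). Cpeb1, Cpeb4, Msi2 and Rbfox1 were in both, while Cpeb2, Msi1 and Rbfox3 were in neither. Over all 21035 RefSeq genes with a curated messenger RNA, 19.9% were listed in library 1, 15.0% in library 2, 26.6% in either and 8.25% in both. The members summed to 159 nonredundant reads in library 1 and 1833 in library 2. Rbfox1 made up 91.2% of the first sum and Cpeb1 98.4% of the second, which leaves 14 and 30 reads for all other members together. At 2 or more reads the counts were 5 and 3 members, beside 9.19% and 6.07% of all genes. At 10 or more reads, library 1 kept 1 member (Rbfox1) and library 2 kept 2 (Cpeb1 and Msi2), beside 2.37% and 1.40% of all genes. The counts show that most members present in a table are there with few reads. Because the genes were chosen for the reads of Cpeb1 and Rbfox1, nothing is read from these counts against the background.

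**Figure D1:**
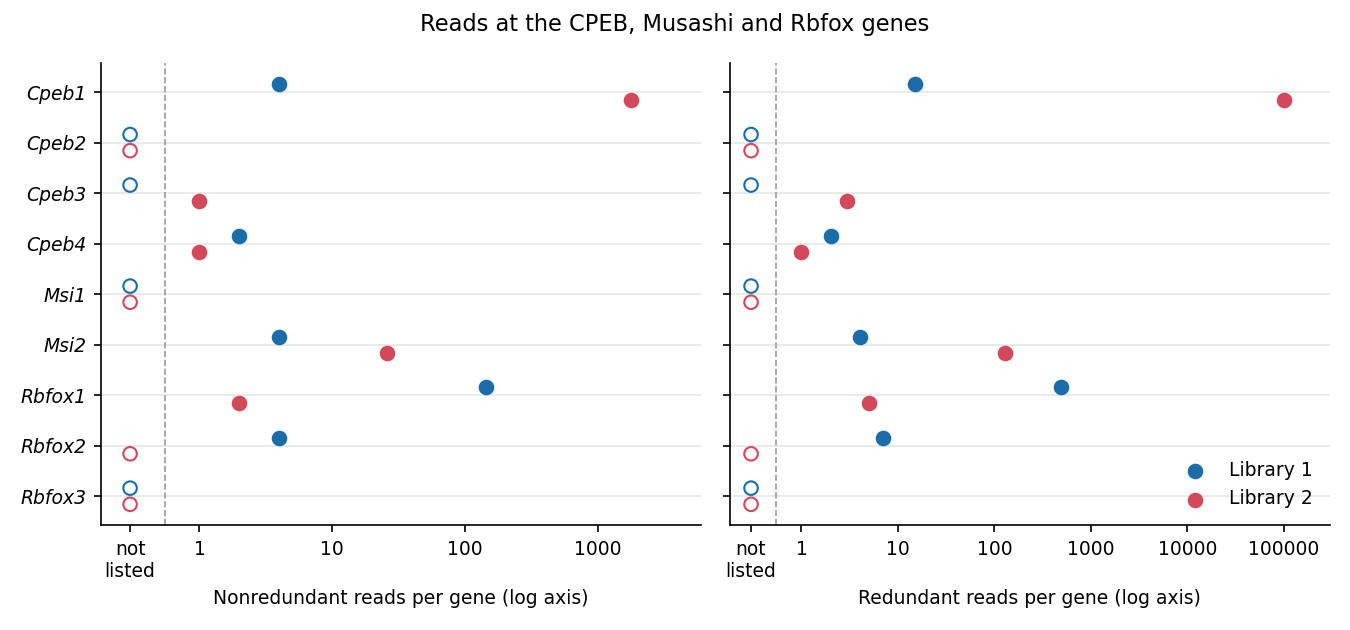
Nonredundant reads (left) and redundant reads (right) of each of the 9 genes on log axes, with library 1 in blue and library 2 in red. Open circles left of the dashed line stand for a gene that the table does not list. Cpeb1 in library 2 (1803 and 100112 reads) and Rbfox1 in library 1 (145 and 496) stand to the right of every other member.

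Among the CPEB genes, Cpeb1, the founding member of the family, had 4 nonredundant and 15 redundant reads in library 1. In library 2 it had 1803 nonredundant and 100112 redundant reads. It was high in library 2 and low in library 1, where most listed genes had still fewer reads. Its share of the nonredundant reads was 0.00721% in library 1 (0.00197 to 0.0185) and 3.70% in library 2 (3.53 to 3.87). The ratio of the shares, library 2 over library 1, was 513 (200 to 1883). Cpeb1 ranked 5 of 3168 genes in library 2 by nonredundant reads and 4 by redundant reads. In library 1 it was 1 of 174 genes with 4 reads, and 22.8% of the listed genes had at least as many. Of the redundant reads of library 2, Cpeb1 took 7.70%, so its share was larger by this count than by nonredundant reads. The interval of 7.65 to 7.75 for it treats repeated copies as independent, which they are not.

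Cpeb2, Cpeb3 and Cpeb4, which form the closer-related branch of the CPEB family, had few reads or none. Cpeb4 had 2 nonredundant and 2 redundant reads in library 1 and 1 of each in library 2. Cpeb3 had 1 nonredundant and 3 redundant reads in library 2, with no entry in library 1. Cpeb2 was listed in neither library. Of the CPEB reads of library 2, Cpeb1 had 1803 of 1805, and in library 1 it had 4 of 6. The counts of Cpeb3 and Cpeb4 did not exceed the 2 reads found at Y-linked genes. Cpeb3 also overlaps another gene, Marchf5, which had 1 read in library 1 and no entry in library 2. Without insertion positions, the gene that the library 2 read of Cpeb3 belongs to could not be checked.

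Of the Musashi genes, Msi2 had 4 nonredundant and 4 redundant reads in library 1, and 26 nonredundant and 129 redundant reads in library 2. It was the third member with 10 or more reads, and its higher value was again in library 2. Its share was 0.0533% of library 2 (0.0348 to 0.0781) against 0.00721% of library 1 (0.00197 to 0.0185), a ratio of 7.39 (2.56 to 29.1). In library 2 it shared rank 174 with genes of the same count, and 5.62% of listed genes had at least as many reads. Msi1, the paralog most often used as a neural stem cell marker, was listed in neither library.

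Among the Rbfox genes the high value was in the other library. Rbfox1 had 145 nonredundant and 496 redundant reads in library 1, and 2 nonredundant and 5 redundant reads in library 2. Its share was 0.262% of library 1 (0.221 to 0.308) and 0.00410% of library 2 (0.000497 to 0.0148). The ratio of the shares, library 1 over library 2, was 63.7 (17.3 to 531), with a wide interval because library 2 had only 2 reads, no more than its Y-linked genes reached. Rbfox1 ranked 87 of 4184 genes in library 1, far below the place of Cpeb1 in library 2. Rbfox2, the most broadly expressed gene of the family, had 4 nonredundant and 7 redundant reads in library 1, with no entry in library 2. Rbfox3 was listed in neither library.

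**Figure D2:**
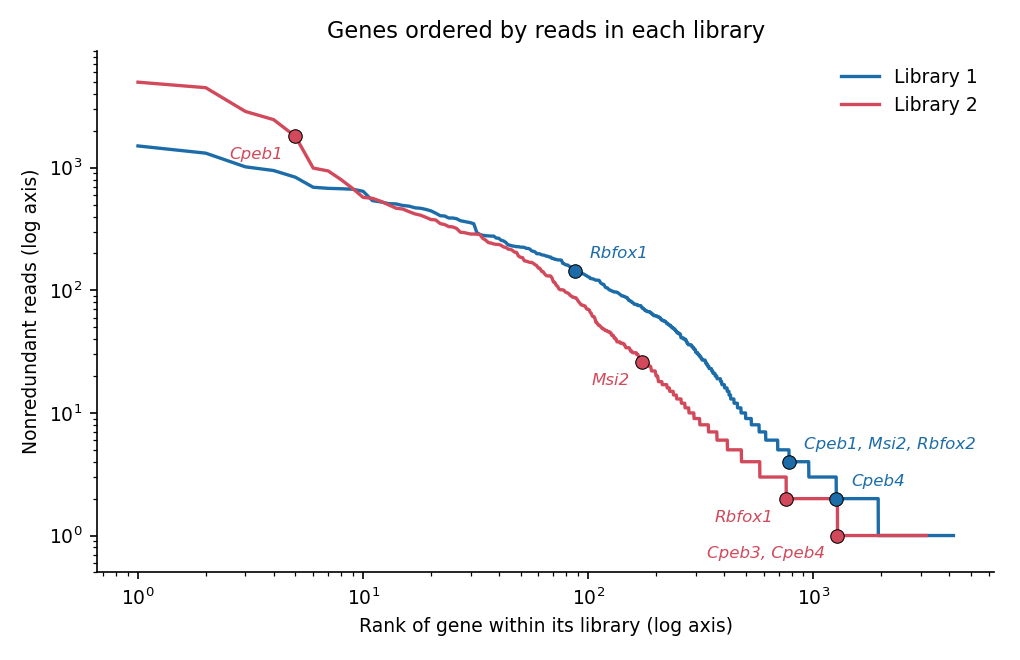
All listed genes of each library in descending order of nonredundant reads, both axes logarithmic, with library 1 in blue, library 2 in red and the members as outlined points at the first rank of their read count. Cpeb1 lies on the steep start of the library 2 curve at rank 5, Rbfox1 lies at rank 87 of library 1, and the other members except Msi2 in library 2 lie on the low steps of 4 reads or fewer.

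Shares at Cpeb1 and Rbfox1 lay far apart between the libraries, as they did for most genes with 10 or more summed reads. With 1 read added to each count, the share of Cpeb1 was 8.68 higher in library 2 on the log2 scale. On that scale Msi2 was 2.62 higher in library 2 and Rbfox1 had a value of -5.42, which is higher in library 1. The other listed members had fewer than 10 reads in the 2 libraries together and are not compared. Among the 822 genes with 10 or more summed reads, 66.4% had shares at least 10-fold apart, 23.8% with the higher share in library 2 and 42.6% with the higher share in library 1. A gene can reach this minimum through the 1 library where it is high, which favours large differences. Of the 3 members with such counts, Cpeb1 and Rbfox1 were past this fold and Msi2 was not, although by redundant reads Msi2 was past it too, at 4.13 on the log2 scale. The median absolute difference over the 822 genes was 4.17 on the log2 scale. A difference as large as that of Cpeb1 was found in 11 of the 822 genes, itself included, and one as large as that of Rbfox1 in 245. The size of the difference at Cpeb1 is thus at the far end of the range, and that at Rbfox1 is within its ordinary part. On this scale a gene with few reads cannot reach a large difference, and both genes were chosen for their reads. Their places in the range therefore follow in part from their depth and are no separate result.

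**Figure D3:**
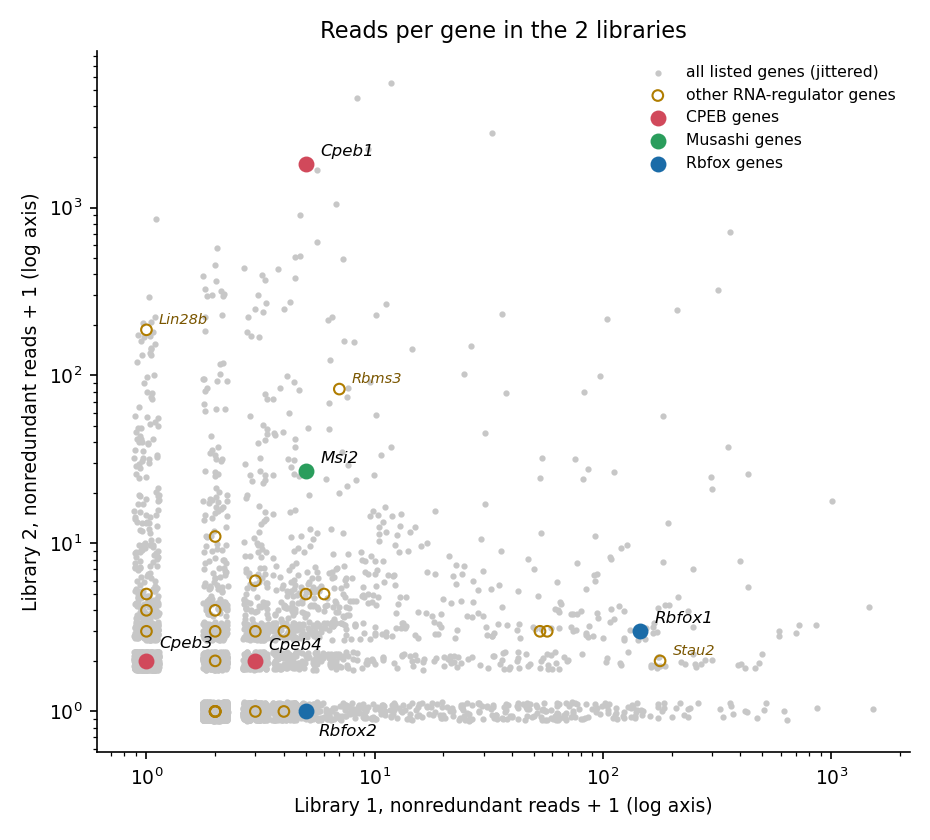
Nonredundant reads plus 1 of each gene in library 1 (horizontal) and library 2 (vertical), both axes logarithmic, with all listed genes in grey (shifted slightly at random so that they do not cover each other), the members as filled points and the other RNA-regulator genes as open circles. Cpeb1 (4 and 1803 reads) lies near the vertical axis, Rbfox1 (145 and 2) near the horizontal one, and Msi2 (4 and 26) between them and the origin.

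Genes deep in 1 library were often present at a low count in the other, as Cpeb1 and Rbfox1 were. Both genes are among those counted below. Over all genes, 19.9% were listed in library 1 and 15.0% in library 2, and in the longest class of genes 71.6% and 58.3%. Length was not held equal in these counts. Of the 12 genes with 500 or more reads in library 2, 11 were listed in library 1, where the median of these was 5 reads. Of the 14 such genes in library 1, 8 were listed in library 2, with a median of 2 reads. The count in the shallower library came to a median of 0.425% and 0.294% of the count in the deeper one for these listed genes. For Cpeb1 it was 0.222%. At the lower minimum of 100 reads, which fits the depth of Rbfox1, 73 of 126 genes of library 1 were listed in library 2, with a median of 1.10%, and 60 of 78 the other way, with a median of 0.821%. For Rbfox1 the value was 1.38%. Not every count in the other library was low: at this minimum the highest was 675 reads in library 2 and 370 in library 1. Whether the low counts in the second library are separate insertions or reads shared between the libraries was not tested.

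Redundant reads per nonredundant read gave another view of the members. At Cpeb1 in library 2 the ratio was 55.5. The 4 other genes within a factor of 2 of its nonredundant reads had ratios of 16.2 to 61.6, and 1 of them was above Cpeb1. Over the 78 genes with 100 or more reads in library 2 the median ratio was 11.2 (1.37 to 71.8). Rbfox1 had a ratio of 3.42 in library 1, where 139 genes of like depth had a median of 6.07 (quartiles 2.74 and 12.4) and 92 of these were at or above it. Msi2 had 4.96 in library 2, against a median of 3.35 in 147 genes of like depth (quartiles 1.90 and 5.41). Cpeb1 in library 1 had 3.75 and Rbfox2 1.75, while Msi2 in library 1 and Cpeb4 in both libraries had 1 redundant read for each nonredundant read. The repeated copies of Cpeb1 were thus many for the library and similar to those of the few genes as deep, and those of Rbfox1 were fewer than in most genes as deep.

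**Figure D4:**
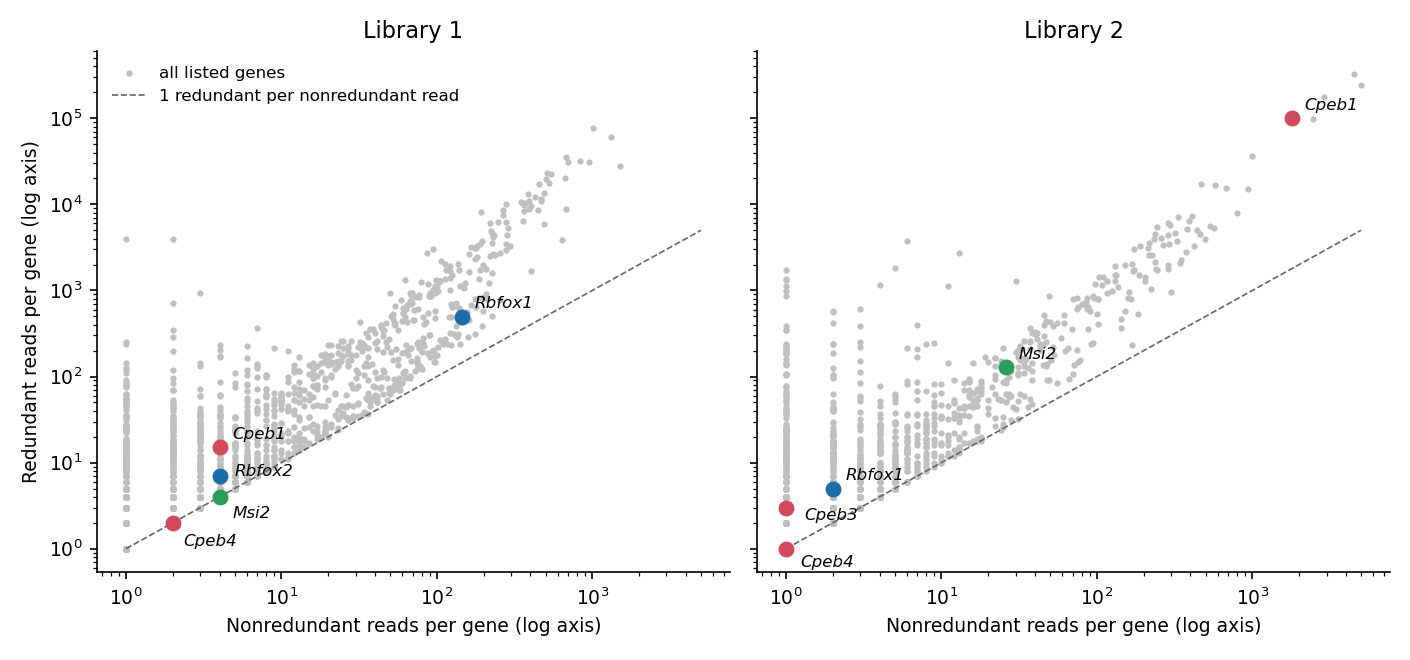
Redundant reads against nonredundant reads of each listed gene in library 1 (left) and library 2 (right), both axes logarithmic, with members as coloured points (CPEB red, Musashi green, Rbfox blue). The dashed line marks 1 redundant per nonredundant read. Cpeb1 in library 2 lies far above the line at a ratio of 55.5, and Rbfox1 in library 1 lies close to it at 3.42.

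Gene length moved with being listed, and all 9 members are long genes. Genes were ordered by length in RefSeq on GRCm38.p6 and divided into 10 classes of equal size. Cpeb1, Cpeb3, Msi2, Rbfox1, Rbfox2 and Rbfox3 were in the longest class, and Cpeb2, Cpeb4 and Msi1 in the class below it. In the longest class library 1 listed 71.6% of genes (95% interval 69.6 to 73.5), and library 2 listed 58.3% (56.2 to 60.4). In the class below it the values were 42.9% (40.8 to 45.0) and 29.3% (27.4 to 31.3). Rbfox3 was the member of the longest class with no entry in either library, as were 18.3% of the genes in that class. Cpeb2 and Msi1 had none either, as did 43.0% of the genes in theirs.

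Within its class Rbfox1 is extreme in length and Cpeb1 is not. Rbfox1 ranks 14 by length among the 21035 genes, and Cpeb1 ranks 2101, at the lower edge of the longest class of 2104. In library 1, 49 genes of that class (2.33%) had 145 or more reads. In library 2, 2 genes of that class (0.0951%) had 1803 or more, Cpeb1 included. Per 100 kb of gene, Rbfox1 had 9.49 reads in library 1, Cpeb1 3.60, Cpeb4 3.05, Rbfox2 1.74 and Msi2 1.06. In library 2 Cpeb1 had 1625 reads per 100 kb, Msi2 6.86, Cpeb4 1.53, Cpeb3 0.531 and Rbfox1 0.131. The member with most reads in each library was also the first per length, although in library 1 the lead of Rbfox1 over Cpeb1 was smaller per length than in reads. Since Cpeb1 and Rbfox1 were chosen for their reads, their place per length is a description only. The order of Cpeb1, Cpeb4, Rbfox2 and Msi2 in library 1 rests on 2 to 4 reads each and cannot be told from counting error. The lead of Rbfox1 per length is over genes with these few reads, and no interval was calculated for it.

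**Figure D5:**
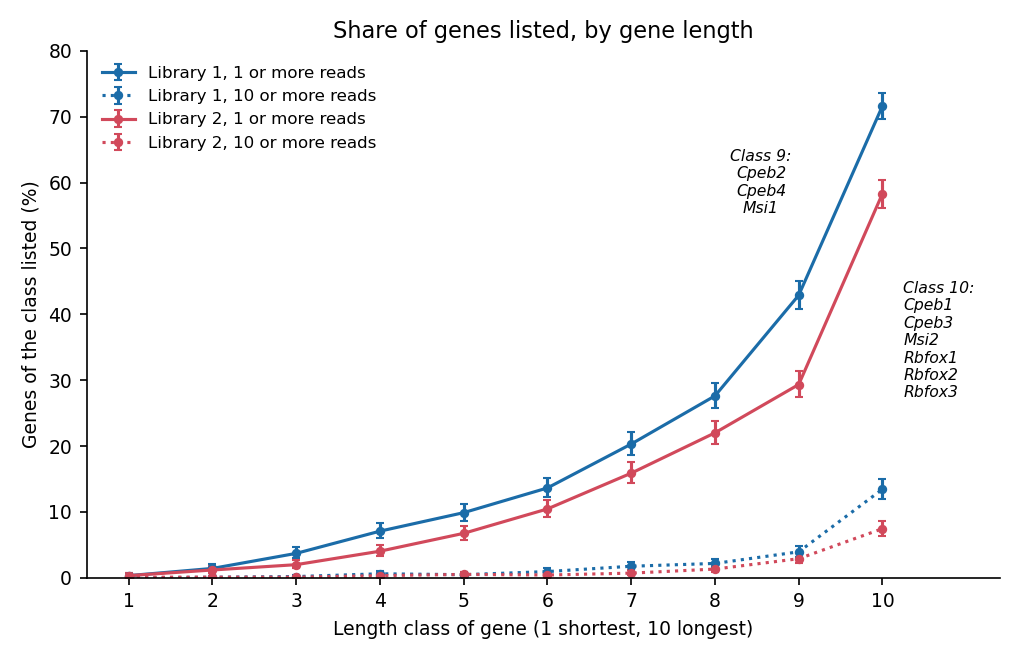
Percent of genes in each of 10 length classes, from shortest to longest, that had 1 or more (solid lines) or 10 or more (dotted lines) nonredundant reads in library 1 (blue) and library 2 (red), with exact 95% intervals as bars. The share rises with length to 71.6% and 58.3% in class 10, which holds 6 of the 9 members, and the other 3 members are in class 9.

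The genes beside the members on their chromosomes were listed about as often as genes in general. The nearest 2 curated genes on each side were taken from the RefSeq order, with any overlapping gene. Of the 4 around Cpeb1, the phosphodiesterase gene Pde8a had 3 reads in library 2, Ap3b2, a subunit of a neuronal adaptor complex, had 1 in library 1, and the others were not listed. None of the 4 genes around Msi2, around Rbfox1, around Rbfox2 or around Rbfox3 was listed. Of all 37 neighbours of the 9 members, 11 were listed (29.7%, against 26.6% of all genes, whose median is 0 reads), and 10 of them had 9 reads or fewer. The exception was C1qtnf7 beside Cpeb2, with 76 reads in library 2, while Cpeb2 itself was not listed.

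The genes with the read pattern most like Cpeb1 were Dscr3, Ski, a repressor of SMAD-dependent transcription, and Stx1a, a syntaxin of synaptic vesicle fusion. Likeness was the Euclidean distance over 4 values, the log2 of nonredundant and redundant reads plus 1 in both libraries. The distances were 1.72 for Dscr3 (5 and 994 nonredundant reads in libraries 1 and 2), 1.77 for Ski (9 and 2469) and 2.71 for Stx1a (11 and 4988). For Rbfox1 they were Msra, a methionine sulfoxide reductase, at 0.376 (140 and 2 reads), the integrin-like gene Itgbl1 at 0.743 (194 and 3) and the protein kinase C gene Prkce at 0.990 (128 and 3). The neighbours of Rbfox1 in this sense are closer than those of Cpeb1.

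Most of a wider list of 75 other genes of post-transcriptional control had few reads or none. Of these, 20 were in library 1 and 24 in library 2, 30 in either and 14 in both, which is 40.0% in either library against 26.6% of all genes. The median member of the list had 0 reads, as did the median of all genes. Of the 44 listings in a table, 17 were of exactly 1 read. At 10 or more reads 3 members were left in each library, or 4.00%, beside 2.37% and 1.40% of all genes. None of these counts was tested, and length was not held equal.

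Genes that act with CPEB on poly(A) tails and translation were listed about as often as other genes, with 3 nonredundant reads or fewer each. Of the 18, 4 were listed, or 22.2% against 26.6% of all genes in either library: the deadenylase gene Parn with 3 reads, the cap-binding protein gene Eif4e and its transporter Eif4enif1 with 1 each, all in library 2, and the poly(A) polymerase gene Papd4 with 1 nonredundant and 26 redundant reads in library 1. Of these, Parn is in the longest class and the other 3 are shorter genes.

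Genes of neuronal splicing and RNA stability, the processes of the Rbfox genes and their Hu, Nova, CELF and PTB counterparts, had low counts. The counts below are for either library, where the share of all genes listed is 26.6%. In the longest class, which holds some of these genes, 71.6% were listed in library 1, 58.3% in library 2 and 18.3% in neither. The Hu genes, which stabilise AU-rich messenger RNAs in neurons, were listed for 3 of 4, with Elavl2 at 1 read in library 1 and 10 in library 2 and Elavl4 at 1 and 3. Nova and KH-domain splicing factors were listed for 4 of 6, led by Khdrbs2 (2 and 5 reads) and by Khdrbs1 and Khdrbs3 with 4 summed reads each. CELF and Muscleblind genes were listed for 4 of 9, with Celf2 at 4 reads in each library and Celf4 at 3 and 2. PTB and other neural splicing genes were listed for 4 of 6, of which Ptbp2, the neuronal PTB protein, had 2 reads in library 1 and the rest 1 read each. None of these 25 genes except Elavl2 in library 2 reached 10 reads.

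Genes of messenger RNA transport and translational control held the deeper members of the wider list. The Staufen gene Stau2, which carries messenger RNAs into dendrites, had 177 reads in library 1 and 1 in library 2, a split like that of Rbfox1. Of 12 Igf2bp, Lin28 and localisation genes 3 were listed. Igf2bp3, an oncofetal binding protein of messenger RNAs, had 52 and 2 reads, and Igf2bp2 had 3 in library 1. Lin28b, which blocks maturation of let-7 microRNAs, had 186 reads in library 2, with no entry in the table of library 1. The FMRP group was listed for 2 of 5 (40.0%), Cyfip2 with 1 and 2 reads and Cyfip1 with 1 read in library 2. Fmr1, Fxr1 and Fxr2 of this group were listed in neither library. Among the remaining proteins with an RNA-recognition motif, 4 of 10 were listed (40.0%), with Rbms3 at 6 and 82 reads and Rbms1 at 5 and 4. Rbms1 had 1150 redundant reads for its 4 nonredundant reads in library 2, and 5 for 5 in library 1. Stau2, Igf2bp3, Cyfip2, Rbms1 and Rbms3 are in the longest class, where 18.3% of genes were listed in neither library.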

How the data were processed

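The 4 samples were deposited as 2 pooled tables. Per the file headers, each table gives per gene the nonredundant and redundant reads, and per the values both are raw counts that the authors did not normalize. CASAVA, BWA and the build mm9 are named, without versions, in the submitters' processing notes. How reads were assigned to genes and collapsed is not given in the sources used here. Members were found by symbol, and a gene not in a table was taken as 0 reads. Nonredundant reads are meant unless redundant reads are named. Shares carry exact Clopper-Pearson 95% intervals (SciPy 1.17.1, Python 3.11.15). Log2 ratios use 1 added read, and genes with 10 or more summed reads and a 10-fold difference were counted. Tables were matched to RefSeq (GRCm38.p6) by transcript, symbol or synonym, for 4182 of 4184 and 3167 of 3168 genes. Lengths served for classes and reads per 100 kb, and the promoter windows carry that build's coordinates. The code for shares and ratios was first tried on simulated counts.

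Named were all members, the 2 genes with most summed reads per group and the 10 with most in the wider list, and the 3 genes most like Cpeb1 and Rbfox1. Some results that this rule gives are not reported here. Other wider-list genes, the neighbours and the comparisons of reads per length and of genes deep in 1 library were added after values were seen. The members and lists were chosen with earlier results of these data known. No statistical test was run on the data, since each library is 1 pooled table. Alternatives were redundant reads, minima of 2 or 10 reads, totals without the 10 leading genes, 0.5 added reads, RefSeq matching, protein coding genes only and likeness on nonredundant reads alone.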

Additional observations from a re-analysis of the deposited data

How the results depend on the processing

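The difference between libraries kept its direction at Cpeb1, Msi2 and Rbfox1 in all 9 recalculations. Counts this far apart left little room for a reversal, and Cpeb1 and Rbfox1 were chosen for their reads, so nothing is concluded from it. Of all 47 recalculations 22 moved. A share moved when it fell outside its 95% counting interval, and a count when it changed by over 1.5 times. A ratio of shares between the libraries moved when the ratio itself, not its log2, changed by over 1.5 times or crossed 10-fold. At a minimum of 10 nonredundant reads, the listed members went from 5 to 1 in library 1 and from 5 to 2 in library 2. At a minimum of 2 they were 5 and 3. The listed genes of the wider list went from 20 and 24 to 12 and 15 at 2 reads, and to 3 and 3 at 10 reads. Of all genes, 9.19% in library 1 and 6.07% in library 2 had 2 or more reads, and 2.37% and 1.40% had 10 or more. By redundant reads, the share of Cpeb1 in library 2 was 7.70% and that of Rbfox1 in library 1 was 0.0565%. With the 10 leading genes taken out of the total, except Cpeb1 itself, which was kept in it, they were 6.02% and 0.312%. By redundant reads, the log2 difference in share of library 2 over library 1 was 12.0 for Cpeb1 and -6.94 for Rbfox1, and for Msi2 it went from 2.62 to 4.13, past 10-fold. Of the 3 genes most like Rbfox1, 1 was kept with nonredundant reads alone, and of those most like Cpeb1, 2. The cause of these moves was not tested, beyond fewer genes passing a higher minimum. No paired analysis was possible because each table pools its 2 samples, so no column holds a sample of its own, and none could be left out. Counts of 1 to 4 reads limit every statement on members other than Cpeb1, Rbfox1 and Msi2. They also limit the comparison of the libraries at these 3 genes. Cpeb1 and Msi2 had 4 reads each in library 1, and Rbfox1 had 2 in library 2.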
